A study of Mus musculus with 4 samples.

Results

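The nuclear genes for the subunits of the mitochondrial respiratory chain and the ATP synthase were examined in mouse embryonic fibroblasts (MEFs), the cells that grow out of dissociated mouse embryos. Members were all probe sets whose only gene symbol in GEO's platform annotation begins with Nduf, Sdh followed by a to d, Uqcr, Cox4 to Cox8, or Atp5. This gave 160 of the 22690 probe sets on the Affymetrix MOE430A array, for 87 of 12394 genes with a probe set of 1 symbol. In the 2 mTert samples the cells had received the retroviral vector pBabePuro with mTert, the catalytic subunit of mouse telomerase. In the 2 control samples they had received the empty vector, so that all 4 samples carried pBabePuro. Mouse strain, embryonic age and passage are not given in the sources used here, nor whether arrays of a group came from separate cultures. The spread behind each p-value is that between these arrays, and the labels do not say how much of it is technical.

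The respiratory chain moves electrons from NADH and succinate to oxygen and pumps protons out of the mitochondrial matrix on the way. Complex I takes electrons from NADH, complex II from succinate, complex III passes them to cytochrome c and complex IV to oxygen, and complex V, the ATP synthase, lets the protons flow back and makes ATP. Most subunits are encoded in the nucleus and a few in mitochondrial DNA, and the nuclear genes are known as common targets of the transcription factors NRF1 and GABP, of which GABP belongs to the ETS family. Telomerase reverse transcriptase acts at chromosome ends, and reports from other systems have placed part of the protein in mitochondria.

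The nuclear subunit genes are known for promoters that hold binding sites of these factors, and the sequences shown here are those of the members in which letters of both kinds were found. RefSeq windows of GRCm38.p6 were available for 73 of the 87 genes, and the 250 bases before each transcription start were searched on both strands. The NRF1 type, GCGCA and GCGC with 1 base between them, was found in 15.1% of member genes, against 10.2% of all genes tested on the arrays and 4.23% of all genes in the table. The ETS type, CCGGAAG, was found in 19.2% of member genes, against 16.6% of all genes tested and 7.83% of all genes in the table. The YY1 type, AAGATGGCG, was found in 1.37% of members, against 1.47% of all genes tested. No test was made of these shares, and they lay closer to those of the genes tested than to those of the whole table for all 3 types. Atp5h (subunit d of the ATP synthase stalk), Cox6a1 (a subunit of cytochrome c oxidase) and Sdhd (a membrane anchor of succinate dehydrogenase) were the 3 members with both the NRF1 and the ETS type. Their windows lie on the minus strand at chr11:115419920-115420169, chr5:115348959-115349208 and chr9:50603850-50604099. Capitals mark the letters found, which did not overlap, and a match of letters shows no binding.
Atp5h: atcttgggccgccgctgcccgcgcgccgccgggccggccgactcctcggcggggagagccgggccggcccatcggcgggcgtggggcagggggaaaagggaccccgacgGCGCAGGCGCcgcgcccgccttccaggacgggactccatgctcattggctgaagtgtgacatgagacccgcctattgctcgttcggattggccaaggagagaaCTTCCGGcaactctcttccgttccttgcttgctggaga
Cox6a1: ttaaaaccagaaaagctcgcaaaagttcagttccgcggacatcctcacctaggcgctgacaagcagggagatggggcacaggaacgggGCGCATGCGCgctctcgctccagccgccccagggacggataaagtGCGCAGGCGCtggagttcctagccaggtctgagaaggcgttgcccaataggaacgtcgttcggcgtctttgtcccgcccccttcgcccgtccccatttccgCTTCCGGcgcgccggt
Sdhd: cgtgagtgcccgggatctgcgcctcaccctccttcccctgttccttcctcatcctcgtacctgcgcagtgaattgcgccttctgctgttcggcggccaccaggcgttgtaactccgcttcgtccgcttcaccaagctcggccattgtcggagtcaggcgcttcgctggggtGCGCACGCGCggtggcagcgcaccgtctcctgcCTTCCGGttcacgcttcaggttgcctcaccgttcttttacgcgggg

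Tert checked the labels of the groups. Its probe set gave 1164.5 and 845.4 on the mTert arrays, where it was called present, and 128.0 and 84.7 on the control arrays, where it was called absent, at least 9.53-fold higher with the transgene (limma adjusted p = 0.188). Between 51.6% and 54.4% of all probe sets that are not controls were called present on an array. Of 14 fibroblast markers, 13 had a probe set of 1 symbol and all 13 were present on all 4 arrays. Epcam, Krt8 and Krt18 of epithelium, Pecam1, Cdh5 and Tie1 of endothelium, and Myog, Ckm, Actc1, Myh6 and Mb of muscle were absent on every array. In the same lists, by the probe set with the most present calls, Des of muscle was present on 3 arrays and Kdr of endothelium on 2. Acta1 and Tnnt2 of muscle and Cdh1 of epithelium were present on 1 array each. Of fat, Adipoq and Ucp1 were absent on every array and Fabp4 was present on all 4. The signals of 8 macrophage markers summed to 2817.4 and 10739.5 on mTert 1 and mTert 2 and to 2612.8 and 10279.1 on control 1 and control 2, so these genes differed between arrays numbered 1 and 2 and little between the groups. Control 1 was hybridised with 5 µg of labelled cRNA and the other 3 arrays with 15 µg, per the instrument records, and each array had its own wash module.

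Of the 160 member probe sets 138 were called present on all 4 arrays, 4 on 1 to 3 arrays and 18 on none. The comparison used the 141 present on at least 2 of the 4 arrays whatever their group, which cover 81 genes. These were 63 probe sets for 33 genes of complex I, 7 for 4 genes of complex II, 13 for 8 genes of complex III, 23 for 11 genes of complex IV, 25 for 17 genes of complex V, and 10 for 8 assembly factors of complexes I and II. Signals are in scaled arbitrary units and cannot be compared between probe sets. Differences are log2 values, mTert minus control, each with its standard error (SE) from limma, and each gene is given by the brightest of its tested probe sets unless another is named.

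Subunits of the respiratory chain and the ATP synthase had nearly the same signals in mTert and control cells. No member rose or fell by limma at a Benjamini-Hochberg adjusted p of 0.05 over all 12396 probe sets tested (0 of 141, smallest adjusted p 1.00). The same holds for all probe sets tested, of which 0.0% were called in each direction. At an unadjusted limma p under 0.05, 4 of 141 member probe sets were higher and 0 lower, where all probe sets gave 0.847% higher and 1.26% lower. With 1 probe set per gene, the brightest, 0 of 81 passed that threshold, where all genes gave 0.853% higher and 1.35% lower. Over the 81 genes the median difference was 0.037 (quartiles -0.029 and 0.092), beside 0.008 over all 7387 genes tested (quartiles -0.081 and 0.105). With each array scaled to a common median in place of the trimmed mean, that of the members was 0.001 and that of all genes -0.029. RNA was taken from whole cultures, so fewer cells of a type and less RNA per cell cannot be told apart.

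A difference that does not pass a test may still exist, so the width of the intervals matters. The 95% interval of the difference lay within 1.5-fold in both directions for 76 of the 81 member genes (93.8%), beside 65.0% of all genes tested. The exceptions were Ndufb8, Atp5e, Cox4i2, Cox6b2 and Ndufaf5. The median SE was 0.11 for member genes and 0.16 for all genes. The fit used an intensity trend, and members were not compared with genes of like signal. By the brightest probe set, only 1 of the 81 genes, Ndufb8, had means that differed at least 1.2-fold, where 12.2% of all genes did. Over all tested member probe sets, 7 of 141 (4.96%) differed as much, where 13.1% of all probe sets did. Those 7 were all higher in mTert and 0 were lower. Of the 60 member probe sets other than the brightest of their gene, 6 reached 1.2-fold. The mean was higher in mTert for 55 genes (67.9%), beside 52.5% of all genes. With scaling to a common median it was higher for 41, but that scaling moved every gene by -0.037, and the share of all genes was not counted under it. The median of the members exceeded that of all genes by 0.03 under both scalings. Both mTert signals lay above both control signals for 19 genes (23.5%) and below for 5 (6.17%), where all genes gave 13.8% above and 11.7% below. At the level of probe sets, 29 of 141 were above and 9 below, where all probe sets gave 13.4% and 12.1%. Without mTert 2 the median of the members was 0.000, that of all genes 0.007, and 41 of 81 genes had the higher mean in mTert.

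**Figure D1:**
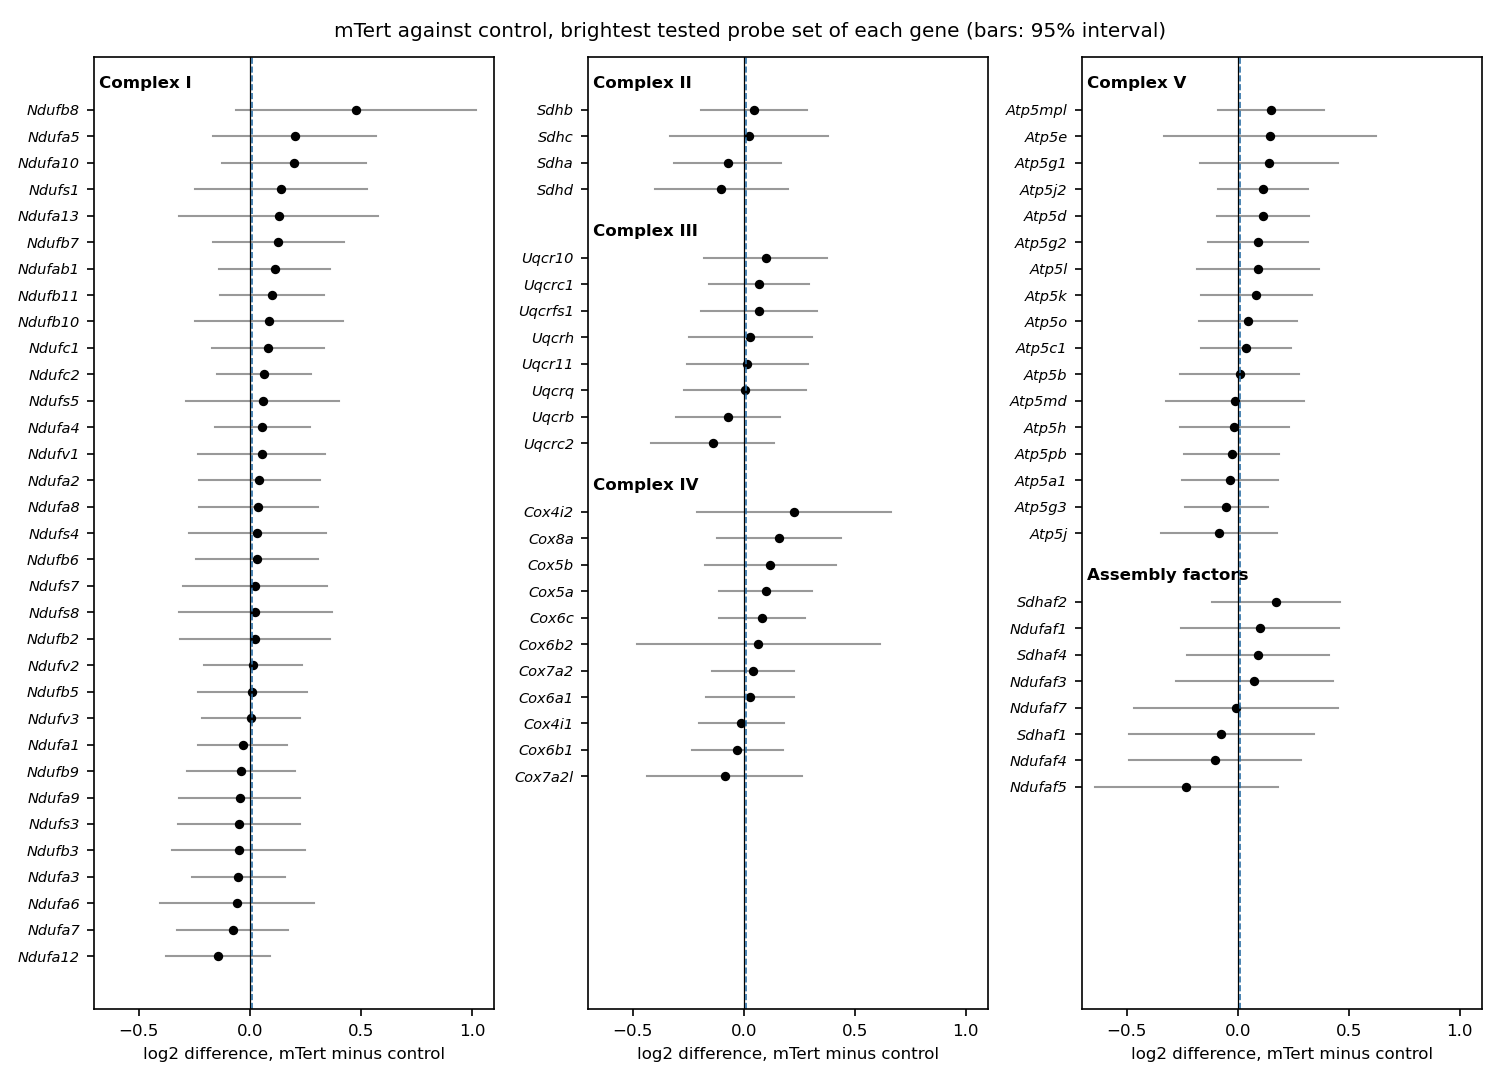
Differences of the 81 tested member genes by complex. Each point is the log2 difference of a gene, mTert minus control, from its brightest tested probe set, the bar is its 95% interval by limma, the solid line is 0 and the dashed line is the median of all 7387 genes tested (0.008). Every bar crosses 0, and Ndufb8 at 0.48 lies farthest out.

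Complex I, the NADH dehydrogenase, had a median of 0.034 over 33 genes (quartiles -0.033 and 0.085), with 24 higher and 9 lower means. With scaling to a common median it was -0.003. The core subunits hold the flavin and the iron-sulphur clusters. Ndufv1, the flavoprotein that binds NADH, had signals of 1703.2 and 1515.3 in mTert and 1612.4 and 1484.8 in control. Ndufv2, an iron-sulphur subunit, had 2689.2 and 2807.8 in mTert and 2746.9 and 2698.6 in control. Ndufs1, the largest iron-sulphur subunit, had 811.7 and 985.1 in mTert and 746.0 and 884.5 in control. In each of these genes the groups overlapped, and the differences were 0.054 (SE 0.12), 0.013 (SE 0.09) and 0.14 (SE 0.16).

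The brightest probe sets of the remaining core subunits also had overlapping groups. Ndufs3 had 1201.6 and 1303.7 in mTert and 1301.5 and 1286.2 in control, a difference of -0.048 (SE 0.11). Ndufs7 had 1172.9 and 1406.3 in mTert and 1226.6 and 1299.8 in control, or 0.025 (SE 0.13). Ndufs8, another iron-sulphur subunit, had 2450.5 and 2578.1 in mTert and 2172.4 and 2814.0 in control, or 0.024 (SE 0.14). Another of its 5 tested probe sets had 933.2 and 1053.0 in mTert and 824.0 and 832.2 in control, without overlap, at 0.26 (SE 0.13, limma adjusted p = 1.00). By their brightest probe sets these 6 core genes thus overlapped between the groups, with a median of 0.024 that turned negative with scaling to a common median. Under that scaling Ndufv2 stood at -0.023, Ndufs7 at -0.012 and Ndufs8 at -0.013.

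Accessory subunits surround this core. Those of the matrix arm had a median of -0.021 over 8 genes, and those of the membrane arm 0.058 over 17 genes. Ndufb8, a membrane arm subunit often used as a marker of assembled complex I, was the member gene farthest from 0. It had 2363.5 and 2236.9 in mTert and 1296.5 and 2101.9 in control, with a mean of 2300 ± 89.6 in mTert and 1699 ± 569 in control (SD, n = 2 each). The groups did not overlap, but the control arrays lay far apart, and the low value was that of control 1, the array with 5 µg of cRNA. The difference was 0.48 (SE 0.22, limma adjusted p = 1.00), and without control 1 it was 0.13. Whether the amount of cRNA played a part was not tested.

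On the lower side of complex I the smallest p belonged to 1 probe set each of Ndufa5 and Ndufa12, subunits of the matrix arm. Ndufa12 had 1915.2 and 1995.0 in mTert and 2149.9 and 2167.9 in control. Both mTert signals lay below the controls, by -0.14 (SE 0.10). Ndufa5 was read by 2 tested probe sets that went opposite ways. The brighter had 955.6 and 934.3 in mTert and 734.3 and 920.7 in control, and stood at 0.20 (SE 0.15). The other had 510.3 and 648.7 in mTert and 707.0 and 658.8 in control, at -0.25 (SE 0.16). In neither did the groups overlap, and neither difference passed the test. Ndufab1, the mitochondrial acyl carrier protein, had 1609.3 and 1612.5 in mTert and 1516.7 and 1465.8 in control, or 0.11 (SE 0.10), with no overlap. Ndufa4, named for complex I and since found in complex IV, had 3671.7 and 3664.2 in mTert and 3409.7 and 3650.3 in control, or 0.056 (SE 0.09). Counting it with complex IV gave medians of 0.033 for complex I and 0.061 for complex IV.

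Complex II, the succinate dehydrogenase, is the entry point shared with the citric acid cycle and has 4 nuclear subunits. Its median was -0.025 and its genes lay between -0.10 and 0.047. Sdha, the flavoprotein that oxidises succinate, had 2062.3 and 2133.9 in mTert and 2279.9 and 2135.2 in control. Both mTert signals were lower than both control signals, though mTert 2 and control 2 nearly met, and the difference was -0.073 (SE 0.10). Sdhb, the iron-sulphur subunit, had 2732.4 and 2491.4 in mTert and 2495.6 and 2557.4 in control, at 0.047 (SE 0.10). Sdhc, a membrane anchor, had 2669.5 and 2159.9 in mTert and 2163.9 and 2581.5 in control, at 0.023 (SE 0.15). The groups overlapped in both genes. Sdhd, the other anchor, whose promoter is printed above, had 907.3 and 957.0 in mTert and 1048.1 and 955.3 in control, at -0.10 (SE 0.12). Its other probe set had 356.0 and 232.4 in mTert and 225.2 and 233.5 in control, at 0.33 (SE 0.24), with mTert 1 high and the other 3 arrays close together.

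Complex III, the cytochrome bc1 complex, had a median of 0.022 over 8 genes and -0.014 with scaling to a common median. Uqcrfs1, the Rieske iron-sulphur protein that carries electrons towards cytochrome c, had 1280.5 and 1291.0 in mTert and 1235.6 and 1218.6 in control. The groups did not overlap and each was tight, with a difference of 0.067 (SE 0.11), or 1.05-fold. Uqcrc1, a core protein of the matrix side, had 2718.2 and 2816.4 in mTert and 2706.4 and 2567.8 in control, again without overlap, at 0.070 (SE 0.09). Uqcrc2, its partner, leaned the other way, with 1897.7 and 1699.8 in mTert and 1891.1 and 2068.9 in control, at -0.14 (SE 0.11). Uqcrb, a small subunit, had 10053.6 and 8966.4 in mTert and 9327.1 and 10666.1 in control, at -0.071 (SE 0.10). These overlapped between the groups.

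Complex IV, cytochrome c oxidase, had the highest median of the 5, at 0.066 over 11 genes with 8 higher and 3 lower means, and 0.030 with scaling to a common median. No test set it apart from the other complexes. Its median was not the highest without mTert 2, at 0.019 beside 0.049 for complex V, or without control 2, at 0.021 beside 0.066 for complex V. Cox4i1, the ubiquitous form of subunit 4, had 5136.6 and 5410.7 in mTert and 5367.5 and 5265.2 in control, at -0.012 (SE 0.08). Cox5a, which binds subunit 4, had 3576.7 and 3767.9 in mTert and 3447.2 and 3408.4 in control. The mTert signals were both higher, by 0.099 (SE 0.09). Cox5b, a zinc-binding subunit, had 4472.6 and 5330.0 in mTert and 4822.1 and 4183.2 in control, at 0.12 (SE 0.12) with overlap. All 4 tested probe sets of Cox5b stood higher in mTert, between 0.093 and 0.30, and 3 of them without overlap. The largest of these had 1731.7 and 2077.0 in mTert and 1387.3 and 1704.5 in control, at 0.30 (SE 0.15, limma adjusted p = 1.00).

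Several subunits of cytochrome c oxidase have a further gene for a tissue form. Cox6a1, whose promoter is printed above, was present on all 4 arrays with 7075.3 and 7867.1 in mTert and 7351.8 and 7294.1 in control, at 0.027 (SE 0.08). Its heart and muscle counterpart Cox6a2 was absent on all 4. Cox7a2, the general form of subunit 7a, had 5199.9 and 5363.2 in mTert and 5140.5 and 5121.5 in control, without overlap, at 0.042 (SE 0.08). Its other probe set went the opposite way, with 2099.0 and 2597.2 in mTert and 2416.8 and 2417.7 in control, at -0.050 (SE 0.13) with overlap. The muscle form Cox7a1 was absent on all 4 arrays. Cox8a had 3995.0 and 3540.0 in mTert and 3630.2 and 3130.6 in control, at 0.16 (SE 0.11), while Cox8b of muscle and Cox8c of testis were absent. Of the muscle markers, Myog, Ckm, Actc1, Myh6 and Mb were absent too, while Des, Acta1 and Tnnt2 had present calls, as given above.

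Other variant forms were detected near the limit of the call. Cox4i2, the form of subunit 4 known from lung, was present on 3 arrays and marginal on control 1. It had 277.9 and 241.4 in mTert and 225.3 and 217.7 in control, without overlap, at 0.23 (SE 0.18, limma adjusted p = 1.00). Cox6b2, known from testis, was present on 3 arrays with 254.0 and 231.1 in mTert and 274.6 and 195.0 in control, at 0.066 (SE 0.22). Cox7a2l, a factor that joins complexes III and IV into supercomplexes, was read by 3 probe sets on both sides of 0. Its brightest probe set had 1985.7 and 2534.2 in mTert and 2508.4 and 2257.8 in control, at -0.085 (SE 0.14). Another had 1907.1 and 2047.9 in mTert and 2152.0 and 2068.8 in control, without overlap, at -0.094 (SE 0.10). The last had 1574.3 and 1996.6 in mTert and 1784.4 and 1748.0 in control, at 0.006 (SE 0.14) with overlap. Cox7c, a general subunit, had no usable reading, since its 2 probe sets were absent on every array but control 2, where 1 was present and 1 marginal. Ndufb1 of complex I was absent on every array.

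**Figure D2:**
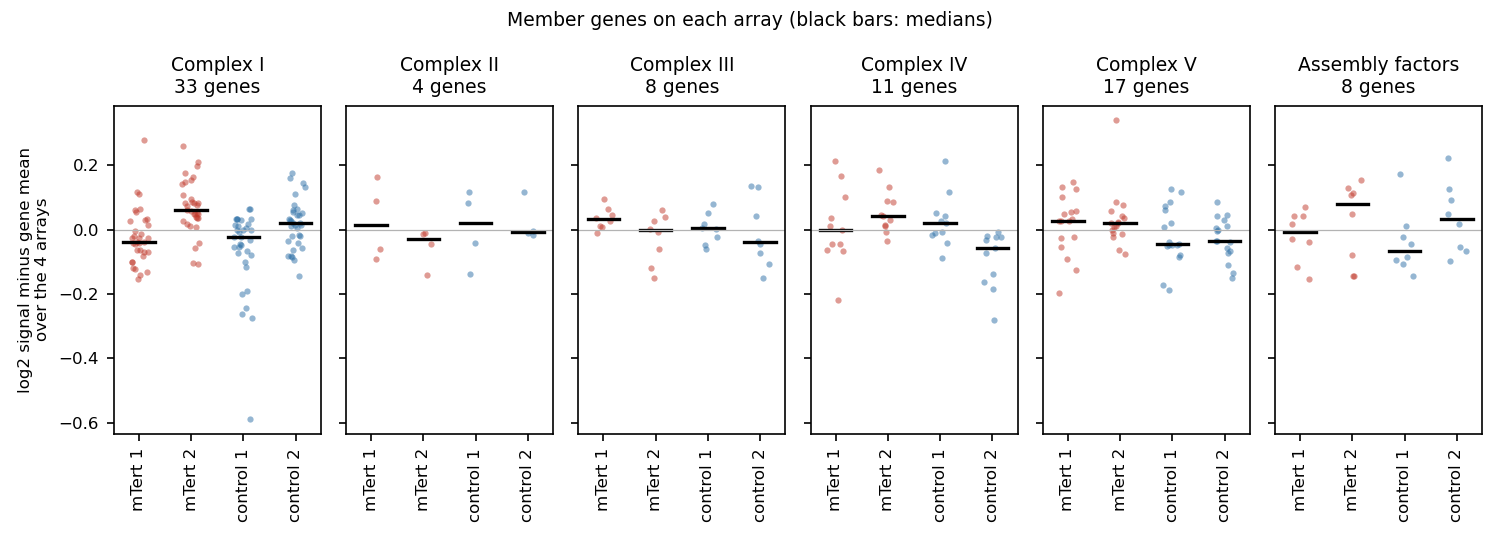
Log2 signal of each tested member gene on each array, as its deviation from the gene's mean over the 4 arrays, by complex. Points are genes (brightest tested probe set) and black bars are medians. In complex I the arrays numbered 2 sit above those numbered 1 in both groups, with medians of -0.037 and 0.062 on mTert 1 and mTert 2 and -0.024 and 0.021 on control 1 and control 2, while in complex V both mTert medians lie above both control medians.

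Complex V, the ATP synthase, had a median of 0.046 over 17 genes (quartiles -0.015 and 0.11), with 11 higher and 6 lower means, and 0.009 with scaling to a common median. On single arrays its median deviation was 0.027 and 0.019 on mTert 1 and mTert 2 and -0.044 and -0.035 on control 1 and control 2. The median of the signed differences was -0.006 for mTert 2 minus mTert 1 and 0.010 for control 2 minus control 1. Opposite shifts of single genes cancel in such a median, so it does not measure the spread between arrays. In the catalytic F1 head, Atp5a1, the alpha subunit, had 4888.5 and 5144.4 in mTert and 4896.2 and 5393.7 in control, at -0.035 (SE 0.09). Atp5b, the catalytic beta subunit, had 4561.6 and 4385.6 in mTert and 4871.4 and 4059.5 in control, at 0.008 (SE 0.11). Atp5c1, the rotating gamma subunit, had 4285.8 and 4104.4 in mTert and 4006.3 and 4170.1 in control, at 0.037 (SE 0.08). All 3 overlapped between the groups.

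The proton-driven c ring is built of 1 protein encoded by 3 genes, and these did not go 1 way. Atp5g1 had 1315.8 and 1209.1 in mTert and 1066.8 and 1225.0 in control, at 0.14 (SE 0.13). Atp5g2 had 3565.1 and 3300.7 in mTert and 3131.4 and 3310.3 in control, at 0.091 (SE 0.09). Atp5g3 had 6952.5 and 6473.3 in mTert and 6863.3 and 7041.4 in control, at -0.051 (SE 0.08). The groups overlapped in each. The peripheral stalk, which holds the head still, had a median of -0.022 over 4 genes, with Atp5j (subunit F6) at 3006.4 and 3383.2 in mTert and 3563.4 and 3204.7 in control, or -0.084 (SE 0.11). Atp5h, whose promoter is printed above, had 3946.8 and 4440.9 in mTert and 4425.6 and 4045.8 in control, or -0.015 (SE 0.10).

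The small membrane subunits, which help join ATP synthase into dimers, had a median of 0.091 over 5 genes, 4 of them higher. Atp5k (subunit e) was read by 3 probe sets. That with the smallest p in complex V had 3967.7 and 3447.5 in mTert and 3005.1 and 3288.7 in control. Both mTert signals were higher, by 0.23 (SE 0.11, limma adjusted p = 1.00), while the brightest probe set stood at 0.084 with overlap. Atp5mpl, a small proteolipid, had 2687.0 and 2506.2 in mTert and 2397.7 and 2283.1 in control, without overlap, at 0.15 (SE 0.10). None of these differences passed over all probe sets (limma adjusted p = 1.00).

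The 4 probe sets with an unadjusted p under 0.05 belonged to Ndufa7 of complex I, Uqcr10 of complex III and Cox5a of complex IV, and none of them was the brightest of its gene. Ndufa7 is an accessory subunit of the matrix arm and was read by 5 probe sets. That with the smallest p of all members had 1800.7 and 2202.6 in mTert and 1370.2 and 1393.4 in control, a 1.44-fold difference or 0.53 (SE 0.13, limma adjusted p = 1.00). Another had 399.1 and 309.5 in mTert and 230.3 and 221.4 in control, at 0.64 (SE 0.19). In both, the mTert signals stood clear of tight controls. The brightest had 4084.6 and 3731.5 in mTert and 3865.4 and 4394.7 in control, at -0.078 (SE 0.10). Those remaining were at 0.023 (SE 0.09) and 0.11 (SE 0.13), with overlap, so probe sets of 1 gene gave different answers.

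Cox5a and Uqcr10 also had 1 probe set well above the others, though, unlike Ndufa7, none of their tested probe sets was lower in mTert. The Cox5a probe set at issue had 1398.7 and 1941.5 in mTert and 1107.4 and 1147.2 in control, at 0.55 (SE 0.17, limma adjusted p = 1.00). The other 2 stood at 0.099 and 0.009. Uqcr10, a small subunit of complex III, had 393.9 and 303.0 in mTert and 221.9 and 234.1 in control in 1 probe set, at 0.60 (SE 0.20, limma adjusted p = 1.00). Its brightest had 2263.1 and 2120.6 in mTert and 2192.7 and 1907.8 in control, at 0.099 (SE 0.11). The remaining Uqcr10 probe set, called absent on mTert 1, had 701.5 and 546.0 in mTert and 568.4 and 533.9 in control. It stood at 0.17 (SE 0.17) with overlap. Of the 4 probe sets, 3 carry the suffix _x_at, which Affymetrix gives to sets whose probes may cross-hybridise with other sequences. Members with that suffix differed at least 1.2-fold in 5 of 26 probe sets (19.2%), beside 1.64% of members with the plain suffix _at. Over all tested probe sets, those with _x_at gave 13.1%, which was lower than the share of those with _at. At an unadjusted limma p under 0.05 the order was the other way, with 3.11% of all tested probe sets with _x_at and 2.15% of those with _at. Those higher in mTert at that threshold were 1.87% and 0.762%. Cross-hybridisation was not tested.

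**Figure D3:**
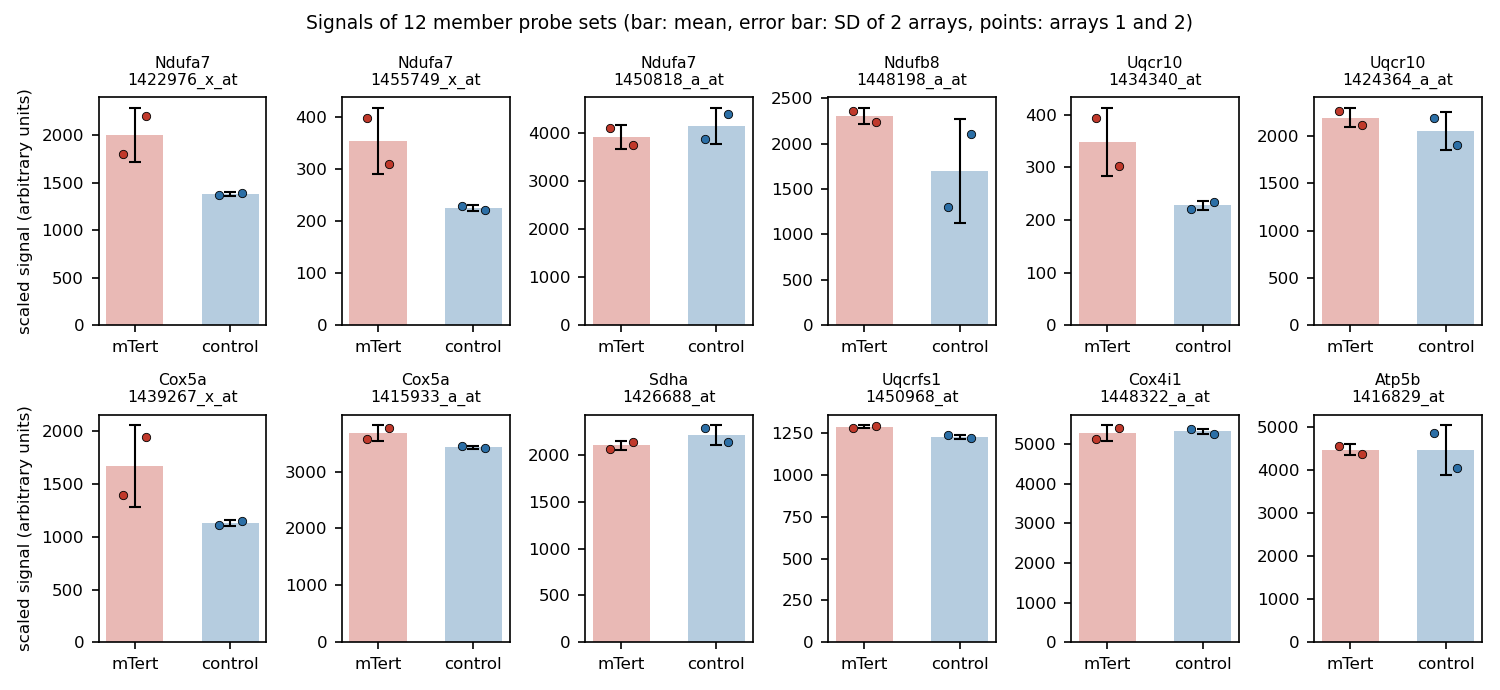
Scaled signals of 12 member probe sets in arbitrary units on axes from 0. Bars are means of 2 arrays, error bars SD and points arrays 1 and 2 of each group. The Ndufa7, Uqcr10 and Cox5a probe sets with the smallest p stand apart from the brightest probe sets of the same genes, and Sdha, Uqcrfs1, Cox4i1 and Atp5b are nearly level between mTert and control.

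Over all members, 42 genes had at least 2 tested probe sets, and in 18 of them (42.9%) these lay on opposite sides of 0, where 53.6% of all such genes did. The median distance between the highest and the lowest probe set of a gene was 0.092, beside 0.16 over all genes. The 3 genes with opposite sides and the smallest p were Ndufa7, Ndufa5 and Ndufa12. Of Ndufa12, the tested probe sets other than the brightest stood at -0.20 (SE 0.14), -0.031 (SE 0.10) and 0.024 (SE 0.49), the last with signals of 38.4 and 85.4 in mTert and 44.2 and 71.7 in control.

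**Figure D4:**
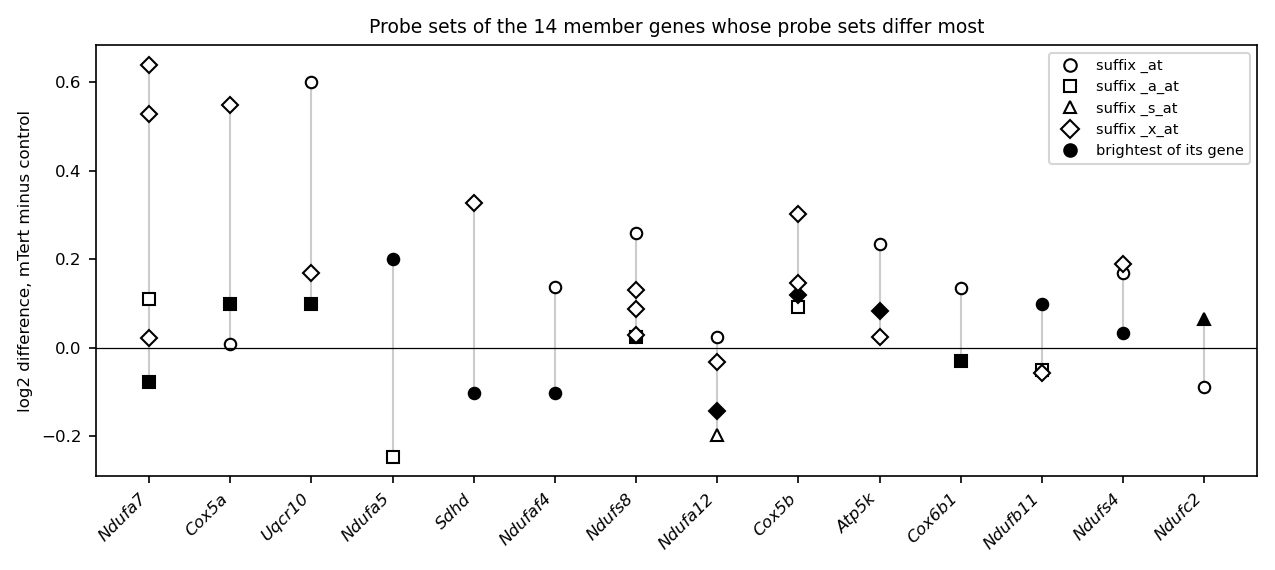
Log2 difference, mTert minus control, of each tested probe set of the 14 member genes whose probe sets lie farthest apart. Filled symbols are the brightest probe set of the gene and shapes give the Affymetrix suffix. Ndufa7, Cox5a and Uqcr10 reach 0.55 to 0.64 in probe sets that are not the brightest.

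Assembly factors, which build complexes I and II and are not part of them, were within the rule for 8 genes. Their median was 0.034, with 4 higher and 4 lower means. Sdhaf2, which inserts the flavin into Sdha, had 1098.4 and 1208.9 in mTert and 1008.5 and 1036.0 in control, at 0.17 (SE 0.12). Ndufaf5, a complex I factor, had 275.6 and 290.2 in mTert and 308.9 and 357.5 in control, at -0.23 (SE 0.17). The groups did not overlap in either gene, in opposite directions, and neither passed the test.

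Genes that work with these complexes gave no calls either. Of the other mitochondrial genes in 7 lists, 0 passed the limma test over all probe sets, and 1, Oxa1l, had an unadjusted p under 0.05. Oxa1l, which inserts proteins into the inner membrane, had 426.9 and 380.4 in mTert and 250.1 and 310.0 in control, at 0.53 (SE 0.18, limma adjusted p = 1.00). Bcs1l, which installs the Rieske protein, had 339.8 and 385.6 in mTert and 294.4 and 241.5 in control, at 0.44 (SE 0.18). The list of other assembly factors had a median of 0.092 over 20 genes, 13 of them higher. In 4 of the 20 (20.0%) both mTert signals lay above both control signals, beside 13.8% of all genes. Protein import and inner membrane scaffold genes had a median of 0.079 over 23 genes, 19 of them higher, and in 7 (30.4%) both mTert signals lay above both control signals. Tomm40, the outer membrane pore, stood at 0.29 (SE 0.16) there, and Timm8a1 at 0.28 (SE 0.20).

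The citric acid cycle feeds the chain with NADH and succinate. Its genes had a median of -0.030 over 16 genes, 6 higher and 10 lower, with Suclg1 at -0.15 (SE 0.11) and Suclg2 at -0.26 (SE 0.23), subunits of succinyl-CoA ligase. Among electron carriers, with a median of 0.003 over 9 genes, Cycs (cytochrome c) had 1896.0 and 1920.9 in mTert and 2329.9 and 2071.9 in control, at -0.20 (SE 0.11), and Etfb stood at 0.11 (SE 0.09). Mitochondrial ribosome and translation genes had 0.051 over 67 genes, with Mrps11 at 0.42 (SE 0.24) and Mrpl20 at -0.22 (SE 0.13). Carriers and porins had 0.013 over 8 genes, with Slc25a10 at 0.27 (SE 0.16) and Vdac3 at -0.17 (SE 0.11).

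Regulators of mitochondrial biogenesis had a median of -0.022 over 14 genes. Nrf1, the factor whose motif was searched above, had 310.9 and 366.1 in mTert and 266.6 and 232.0 in control. It was called marginal on control 2 and present on the other arrays. Both mTert signals were higher, by 0.44 (SE 0.18, limma adjusted p = 1.00). Pprc1, a coactivator of the PGC-1 family, had 572.9 and 566.7 in mTert and 393.2 and 528.2 in control, at 0.32 (SE 0.18), again without overlap. In all, both mTert signals lay above both control signals in 3 of the 14 genes and below in 3 (21.4% each), beside 13.8% and 11.7% of all genes. The 3 below included both GABP subunits. Gabpa, its DNA-binding subunit, had 489.3 and 551.3 in mTert and 642.8 and 569.1 in control, at -0.22 (SE 0.15). Gabpb1, its partner, had 216.4 and 237.2 in mTert and 263.2 and 247.5 in control, at -0.17 (SE 0.18). Ppargc1a, the coactivator PGC-1 alpha, had 51.6 and 46.7 in mTert and 67.5 and 62.7 in control, at -0.41 (SE 0.31). Its signals were low, and it was called marginal on mTert 1 and control 1. None of the 14 passed the limma test over all probe sets. Scaling to a common median changed every difference by -0.037, which turned the medians of the electron carriers, of the carriers and porins and of the assembly factors within the rule negative. None of the 13 genes listed for subunits encoded in mitochondrial DNA matched a probe set of 1 symbol, so these subunits were not analysed here.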

How the data were processed

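RNA of 4 MEF samples was measured on 1 Affymetrix MOE430A array each, 2 mTert and 2 control by their titles. The authors deposited 1 signal intensity per probe set on a linear scale with a detection call, and a detection p-value, per the file headers. No source used here names the software. The value table of the series was identical to the array files (largest difference 0). Trimmed means were already nearly equal (scaling factors 0.9998 to 1.00017). Each array was scaled to a common trimmed mean (2% left out at each end) and log2-transformed, after 1 signal of 0 had been replaced by its array's lowest signal called present. The 64 control probe sets and those present on fewer than 2 arrays were left out. Another 8 probe sets with several symbols, of which 1 begins as the rule asks, were not used. The test was limma 3.58.1 (R 4.3.3) with lmFit and an intensity trend in eBayes, and its p-values had the Benjamini-Hochberg adjustment across the 12396 probe sets. The fit was tested on simulated data, with noise modelled on these arrays. At the same threshold it called 3.4% of changes of 0.5 in log2, 45.8% of changes of 1.0 and 92.8% of changes of 2.0. Changes of 3.0 were called in 98.6%, whereas Tert, at 3.25 in these data, was not called (limma adjusted p = 0.188). Each simulated run held many large changes, which ease the adjusted threshold, so these shares may be too high for these arrays. Most changes of the sizes seen among members would thus not be called. The number of arrays limits the precision.

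Members, lists and tests were chosen with earlier results of these data known. Genes are named by this rule. In each complex, the 2 genes with the smallest p per direction are named, with the core subunits, the isoforms, the c subunits, Ndufa4 and Ndufab1. Up to 3 genes with probe sets on opposite sides and the 2 smallest p of each other list are also named. Atp5h, Atp5e, Ndufb1, Cox7c, Sdhaf2, Ndufaf5, Gabpa, Gabpb1 and Ppargc1a lie outside it and were picked with their values in view. So were further probe sets of Ndufs8, Cox7a2l and Uqcr10. The alternatives were quantile and median scaling, an offset of 50, other detection filters, no intensity trend, a replicate block, the series table, all probe sets, another place for Ndufa4 and each array left out.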

Additional observations from a re-analysis of the deposited data

How the results depend on the processing

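No member probe set passed the limma test under any alternative run, and 41 of 67 named probe sets kept their direction under all of them. Scaling to a common median gave medians of -0.003, -0.062, -0.014, 0.030 and 0.009 for complexes I to V, and turned Ndufv2 (-0.023), Ndufs7 (-0.012), Ndufs8 (-0.013), Sdhc (-0.014), Atp5b (-0.028), Cox6a1 (-0.010) and 1 probe set each of Ndufa7 (-0.014) and Ndufa12 (-0.012). By construction it moves all differences alike. Quantile normalization gave 0.056 for complex V and turned Cox4i1 (0.012), and all probe sets in place of the brightest gave 0.023 for complex II; the cause was not tested. With 1 array left out, the lone array assumed to vary like the other group, the medians ranged from -0.018 to 0.088 for complex I, -0.056 to 0.008 for II, 0.012 to 0.060 for III, 0.019 to 0.107 for IV and 0.036 to 0.066 for V. The same step turned the sign of 25 named probe sets and brought Atp5g3 to 0.000, with ranges of -0.105 to 0.035 and -0.154 to 0.006 for Atp5a1, -0.123 to 0.140 for Atp5b, -0.103 to 0.000 for Atp5g3, -0.169 to 0.002 for Atp5j, -0.050 to 0.025 for Cox4i1, -0.006 to 0.247 for Cox5b, -0.050 to 0.103 for Cox6a1, -0.181 to 0.313 for Cox6b2, -0.204 to 0.104 for Cox7a2 and -0.261 to 0.091 for Cox7a2l. In complex I they were -0.552 to 0.601 and -0.079 to 0.018 for Ndufa12, -0.020 to 0.066, -0.038 to 0.258 and -0.171 to 0.014 for Ndufa7, -0.001 to 0.278 for Ndufs1, -0.107 to 0.011 for Ndufs3, -0.106 to 0.155 for Ndufs7, -0.163 to 0.210 for Ndufs8, -0.030 to 0.139 for Ndufv1 and -0.018 to 0.044 for Ndufv2. Sdhb ranged from -0.020 to 0.113, Sdhc from -0.130 to 0.176, Uqcrb from -0.168 to 0.026 and Suclg2 from -0.559 to 0.046.

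With the array number as a replicate block, limma called 18 of 12396 probe sets and 0 of 141 members (smallest member adjusted p 0.21). Tert was called with the block (limma adjusted p = 9.56e-08) and not without it (0.188). With the block 7 of 141 members had an unadjusted p under 0.05, beside 488 of all 12396 probe sets. The labels do not say that the numbers pair the samples. Deviations of arrays with the same number had a correlation of 0.373 over all probe sets and 0.0279 over members, across probe sets, which are not independent.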
